A study of Mus musculus with 2 samples.

Results

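Collagens are the main structural proteins of the extracellular matrix, and the genes described here are 39 mouse collagen genes, chosen by symbol. All 39 had a row in the gene tables of both libraries, among 43346 gene rows with an Ensembl identifier. Total RNA was sequenced from hearts of B6NCrl mouse embryos, a C57BL/6 substrain, at embryonic day 14.5. There was 1 group with 2 biological replicates, each the heart of a single embryo, collected on day 17 of July for replicate 2 and on day 15 for replicate 1. Both hearts carry the label pup 1 of pregnant 2 and a sex label that names a pool of males and females, no treatment or mutation is given, and embryo and collection day differ together. RNA was taken with a mirVana kit, 10 ng entered each library, molecules above 200 nt were kept and spike-in RNAs were added, per the labels. With 1 library per heart no test between the hearts was made, and a sign test over 2 libraries cannot give a p below 0.5. Levels are given in TPM, a share of all transcripts corrected for their length, and the SD spans the 2 libraries, which differ by embryo, day and preparation together.

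A collagen chain is built around a repeat of triplets in which glycine, the smallest amino acid, is the first residue and sits at the centre of the collagen helix. Fibrillar collagens form the ropes that carry tension, fibril-associated collagens decorate those ropes, and type IV collagens form the sheet-like network of basement membranes. In the developing heart, collagens are made by epicardium-derived fibroblasts, by cushion and valve mesenchyme and by the cells that lay down basement membrane around vessels and muscle.

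The libraries had the profile of heart tissue. All 6 cardiomyocyte markers, all 6 fibroblast and mesenchyme markers and all 6 endothelial markers were at 1 TPM or more in both. The fibroblast and mesenchyme markers summed to 566 TPM in replicate 2, against 535 TPM in replicate 1, and the endothelial markers to 238 and 253 TPM in the same order. The liver and lung epithelium lists had 0 of 6 members each at 1 TPM in both libraries. The liver list summed to 3.25 TPM in replicate 2, against 3.15 TPM in replicate 1, and the lung list to 1.75 and 0.07 TPM in the same order. Of the skeletal muscle list 3 of 6 reached 1 TPM in both, with a sum of 19.3 TPM in replicate 2, against 13.8 TPM in replicate 1. Each of these 3 lists had 1 member at 0 reads in both libraries, Hnf4a, Sftpc and Myod1. The hearts differed in blood: all 5 erythroid markers found were at least 1.5-fold higher in replicate 1, and they summed to 12361 TPM in replicate 2 and 22001 TPM in replicate 1. Xist, the RNA that coats the inactive X chromosome, had 37.7 TPM in replicate 2, against 0.04 TPM in replicate 1, and all 4 Y-linked genes, a list added after the values had been seen, were at 0 reads in replicate 2 and at 12.7 TPM or more in replicate 1. The hearts thus differed in Xist and Y-linked reads although they share a sex label, and this difference cannot be told apart from embryo and day. The tissue is bulk, so fewer cells of a type and less RNA per cell cannot be told apart.

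The glycine repeat can be read directly in the coding sequences. In these sequences glycine codons start with GG, and a run was counted as consecutive groups of 3 codons that each begin with such a codon. All 39 collagen genes had a run of at least 10 triplets, against 59 of 21728 other protein coding genes with a complete coding sequence (0.272%). The run had 344 triplets in Col3a1, 338 in Col1a1, 339 in Col1a2, and 337 to 344 in the 9 fibrillar collagens other than Col24a1 and Col27a1, which had 216 and 217. It was shorter in the other classes, with 113 triplets in each of Col9a1, Col9a2 and Col9a3, 39 to 66 in the 6 type IV genes, and 28 in Col28a1.

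Coding exons of 54 nt, the length of 6 triplets, made up 456 of the 1843 coding exons of these genes (24.7%). Of 196507 coding exons of other genes 0.452% had this length, and 36 of the 39 collagen genes had at least 1. These exons were counted by length alone, without a check for glycine codons. The exons below come from the 3 most abundant chains, the most abundant type IV chain and its X-linked relative Col4a5. Each is the first exon of 54 nt in its gene that is in frame and holds 6 glycine-led triplets. They are shown to make the repeat visible, with the glycine codons in capitals, and are written 5′ to 3′ on the coding strand from GENCODE M21 transcripts on GRCm38.
Col3a1, coding exon 6, chr1:45325360-45325413, plus strand: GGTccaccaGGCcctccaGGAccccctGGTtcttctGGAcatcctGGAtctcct
Col1a1, coding exon 8, chr11:94939904-94939957, plus strand: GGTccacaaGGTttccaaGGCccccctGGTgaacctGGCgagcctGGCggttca
Col1a2, coding exon 8, chr6:4515481-4515534, plus strand: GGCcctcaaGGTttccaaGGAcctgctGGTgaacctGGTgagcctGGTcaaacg
Col4a1, coding exon 7, chr8:11245211-11245264, minus strand: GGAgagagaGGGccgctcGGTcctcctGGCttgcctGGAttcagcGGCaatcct
Col4a5, coding exon 7, chrX:141575988-141576041, plus strand: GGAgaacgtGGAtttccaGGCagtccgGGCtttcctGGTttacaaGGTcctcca

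The exons of Col1a1 and Col1a2, whose products join in type I collagen, were identical at 42 of 54 bases, and at 28 of the 36 bases outside the glycine codons. Those of Col1a1 and Col4a1 were identical at 25 of 54 bases and at 12 of the 36 outside the glycine codons. Between these lay Col1a1 and Col3a1, at 35 and 21 bases in the same order. Col1a2 and Col3a1, and likewise the type IV relatives Col4a1 and Col4a5, were identical at 31 and 17. As each exon is the first of its kind in its gene, the exons compared need not be counterparts.

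**Figure D1:**
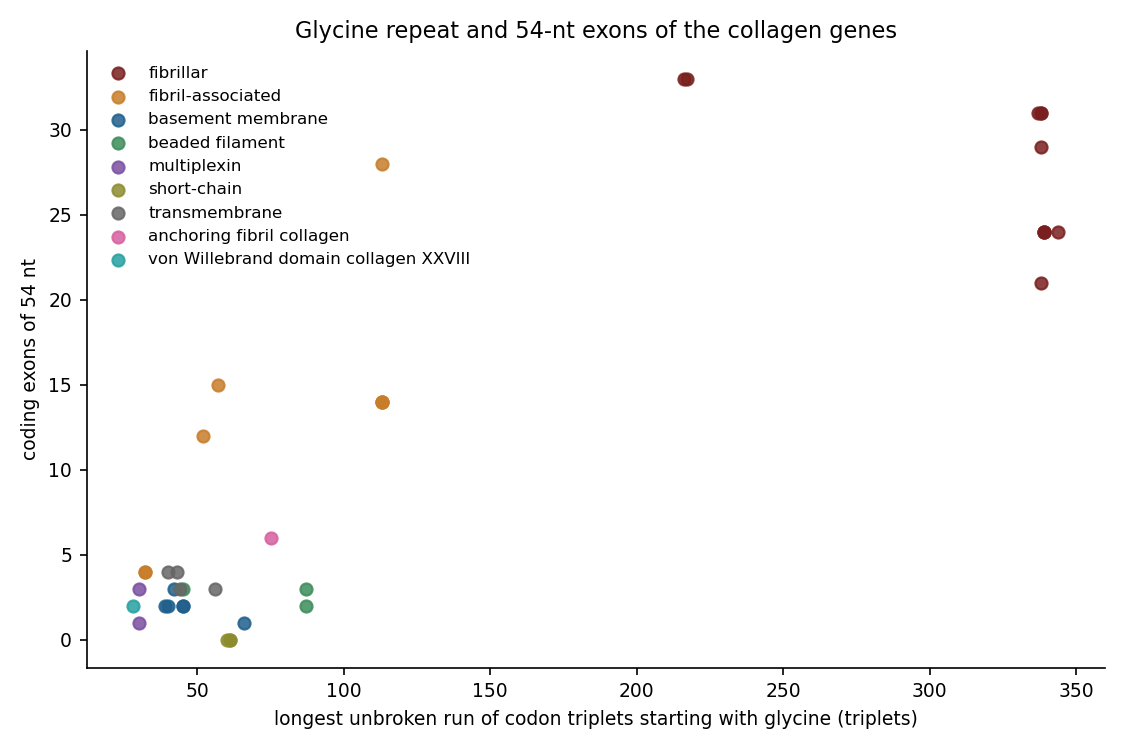
Longest unbroken run of glycine-led codon triplets (x axis, triplets) against the number of coding exons of 54 nt (y axis) for the 39 collagen genes, 1 point per gene and coloured by class. The fibrillar genes lie to the right with 21 to 33 such exons, and the short-chain genes have runs of 60 or 61 triplets and 0 such exons.

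Of the 39 genes, 28 reached 1 TPM in both libraries, and the other 11 were below it in both. Over all protein coding genes in the tables the share at 1 TPM in both was 56.8%. The lowest gene above the line was Col8a1, with 1.81 TPM in replicate 2, against 1.14 TPM in replicate 1, and the highest below it by its mean was Col4a3, with 0.56 and 0.44 TPM in the same order. The collagen genes together held 0.232% of all gene TPM in replicate 2 and 0.201% in replicate 1, a mean of 0.216 ± 0.0213% (SD, n = 2). By reads the share was larger, at 0.796% in replicate 2 (0.793 to 0.800%, Wilson 95% interval) against 0.705% in replicate 1 (0.702 to 0.709%). Because several reads can stem from 1 molecule, the intervals cover no more than the error of counting.

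Collagen RNA was concentrated in few genes. Col3a1, Col1a1 and Col1a2 held 68.4% of collagen TPM in replicate 2 and 65.5% in replicate 1. The 11 fibrillar genes together held 73.8% in replicate 2 and 71.1% in replicate 1, and the 6 type IV genes held 12.7% and 14.7% in the same order. Levels spanned from 781 TPM for Col3a1 to no read for Col19a1 in replicate 2, and the plot of TPM by library shows the 28 detected genes by class.

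**Figure D2:**
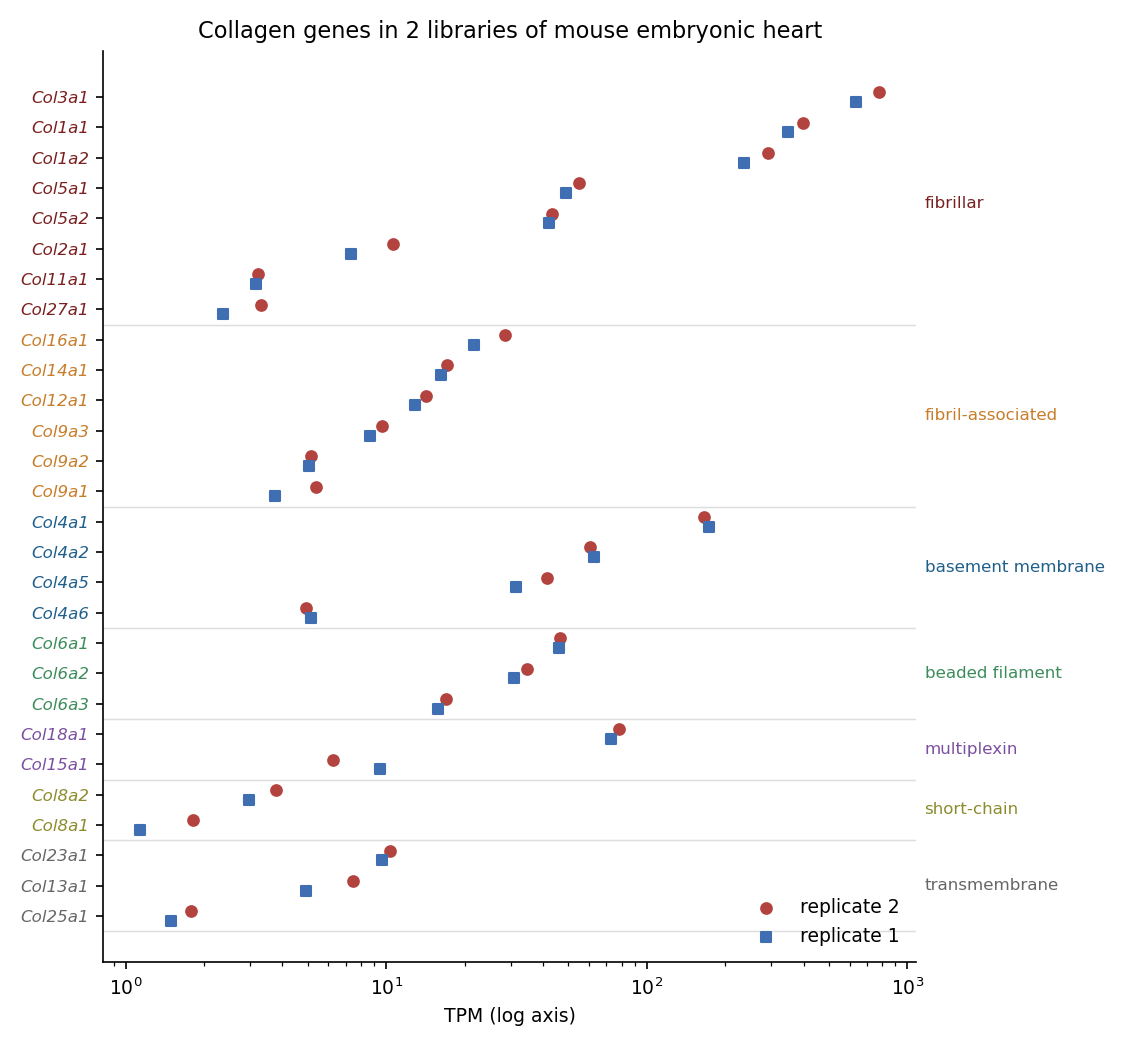
TPM of the 28 collagen genes at 1 TPM or more in both libraries (x axis, log scale), 1 row per gene grouped by class, with circles for replicate 2 and squares for replicate 1. Col3a1, Col1a1 and Col1a2 lie furthest right, from 237 to 781 TPM, and the gap between the 2 hearts is small beside the differences between genes.

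Among the fibrillar collagens, Col3a1 was the most abundant. It encodes the chain of type III collagen, which forms the fine fibrils of distensible tissue such as vessel wall. Col3a1 (chromosome 1, 45311538 to 45349706, plus strand, GRCm38) had 781 TPM in replicate 2 and 634 TPM in replicate 1, from 64830 and 52167 reads, and ranked 171 and 199 among all genes. Differences between the hearts are log2 values of replicate 2 over replicate 1 on counts scaled by TMM, a factor that adjusts library size for composition, and each counting interval is an exact 95% interval from the reads alone. For Col3a1 the log2 difference was 0.26, with a counting interval of 0.24 to 0.28.

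The chains of type I collagen, the stiff fibril of tendon, bone and heart stroma, came next. Col1a1 (chromosome 11, 94936224 to 94953042, plus strand) had 397 TPM in replicate 2 and 348 TPM in replicate 1. Col1a2 (chromosome 6, 4504814 to 4541544, plus strand) had 291 TPM in replicate 2 and 237 TPM in replicate 1. Both chains were higher in replicate 2, Col1a1 by 0.16 and Col1a2 by 0.26 on the log2 scale. The fibroblast and mesenchyme marker list had 5 of 6 members above and 1 below zero, with a median log2 difference of 0.15. Of all genes at a mean count of 100 or more, 48.9% lay above zero. The counting interval lay above zero in 3 of the 6 markers and below it in 1. The part of this list in the result was not tested.

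The type V chains, which seed type I fibrils and limit their width, were below both type I chains. Col5a1 had 54.8 TPM in replicate 2 and 49.1 TPM in replicate 1. Col5a2 had 43.3 TPM in replicate 2, against 42.1 TPM in replicate 1. The third type V gene, Col5a3, was nearly silent, with 0.16 TPM from 20 reads in replicate 2 and 0.10 TPM from 12 reads in replicate 1.

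Fibrillar collagens best known from cartilage were present at low levels. Col2a1, the chain of type II collagen, had 10.7 TPM in replicate 2 and 7.33 TPM in replicate 1. Col11a1, a chain of type XI collagen, had 3.23 and 3.17 TPM in the same order, and Col27a1, a cartilage fibril collagen with a shortened helix, had 3.31 and 2.37 TPM. Col11a2 (0.44 and 0.27 TPM) and Col24a1 (0.44 and 0.31 TPM) stayed under 1 TPM in both libraries.

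The 3 chain genes of type IX collagen, which coats type II fibrils, were detected along with Col2a1. Col9a3 had 9.63 TPM in replicate 2 and 8.65 TPM in replicate 1. Col9a2 had 5.13 and 5.05 TPM in the same order, and Col9a1 had 5.36 and 3.73 TPM. Col9a3 shares 234 exon bases with Tcfl5 on the other strand, which had 0.03 and 0.05 TPM. Of the 6 cartilage and valve-type markers 4 reached 1 TPM in both libraries, and the list summed to 33.6 TPM in replicate 2 and 28.5 TPM in replicate 1. Sox9, the factor that drives Col2a1 in chondrocytes and is also active in valve cushions, had 16.1 TPM in replicate 2 and 13.9 TPM in replicate 1. Acan (0.96 and 1.03 TPM) was at the line and Matn1, a matrilin made by mature chondrocytes, had 0 reads in both. Of 8 foregut and airway endoderm markers, listed after the values had been seen, 2 reached 1 TPM in both, and the list summed to 29.2 TPM in replicate 2 and 20.1 TPM in replicate 1. Foxa1, Foxa2, Sox2 and Nkx2-1 from that list had 21, 8, 8 and 3 reads in replicate 2 and 0 reads each in replicate 1. The part of such tissue in the type II and type IX values was not tested.

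Type IX and type II collagens each have alternative forms, and the transcript tables separate them. Col9a1 has a long form that adds a large amino-terminal domain and begins at an upstream start (Col9a1-201, 3834 nt, start at 24177610), and a short form from a start 17577 bases downstream (Col9a1-202, 3059 nt, start at 24195187). The long form is the main one of mouse hyaline cartilage. The long form was assigned 0 reads in both hearts. The short form was assigned 334 reads in replicate 2 and 227 reads in replicate 1, which was 100% and 98.1% of the gene's TPM. A count of 0 allows up to 3 reads per library, and the posterior SD of the long form's count was 2.73 reads in replicate 2 and 2.83 reads in replicate 1. In Col2a1 the form that keeps an extra coding exon of 204 nt near its start (Col2a1-201), known as type IIA and made before cartilage matures, held 62.5% of TPM in replicate 2 and 72.3% in replicate 1. The form without it (Col2a1-202, type IIB) held 29.9% in replicate 2 and 26.1% in replicate 1. The assignment between these 2 forms was loose, with a posterior SD of 110 reads on 702 reads for the first form in replicate 2.

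The 250 bases before the RefSeq starts of the 2 Col9a1 forms are printed because the reads lay with only the downstream one. Capitals mark the motifs searched on both strands, the TATA box letters TATAAA, the CCAAT box and the GC box letters GGGCGG, none of which overlap here. Windows are from RefSeq on GRCm38.p6, and the RefSeq start of the short form lies just downstream of the GENCODE one.
Col9a1, upstream start, no reads assigned, chr1:24177360-24177609, plus strand: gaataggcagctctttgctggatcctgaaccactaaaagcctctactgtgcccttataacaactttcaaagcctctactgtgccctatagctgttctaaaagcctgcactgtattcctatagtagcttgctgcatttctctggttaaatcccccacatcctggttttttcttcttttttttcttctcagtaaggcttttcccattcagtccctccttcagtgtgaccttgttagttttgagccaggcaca
Col9a1, downstream start, chr1:24194953-24195202, plus strand: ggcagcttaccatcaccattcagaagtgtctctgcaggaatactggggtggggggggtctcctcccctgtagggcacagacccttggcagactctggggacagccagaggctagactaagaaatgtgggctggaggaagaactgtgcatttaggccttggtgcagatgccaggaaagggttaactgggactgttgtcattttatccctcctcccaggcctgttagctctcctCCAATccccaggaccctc

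The upstream window held none of the 3 motifs. The downstream one held a single CCAAT, with its first base 18 bases before the RefSeq start at 24195203. The GENCODE start of the short form, at 24195187, falls within that CCAAT. Counting the first listed window of each gene, of 27025 RefSeq windows of this length 12.97% held TATAAA, 34.5% held CCAAT and 32.9% held GGGCGG. Among the 31 collagen genes with a window, 5 (16.1%) held TATAAA, 11 (35.5%) held CCAAT, Col9a1 not among them because its upstream window is listed first, and 18 (58.1%) held GGGCGG. These are matches of letters and say nothing of binding. Col3a1, the most abundant member, had TATAAA with its first base 117 bases before the start.
Col3a1, chr1:45311288-45311537, plus strand: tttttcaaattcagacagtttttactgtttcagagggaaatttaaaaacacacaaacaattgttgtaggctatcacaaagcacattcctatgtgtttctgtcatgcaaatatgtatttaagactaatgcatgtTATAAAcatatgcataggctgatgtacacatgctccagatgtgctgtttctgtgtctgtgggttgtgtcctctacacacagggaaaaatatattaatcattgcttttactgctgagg

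Of the other fibril-associated collagens, 3 were above 10 TPM. Col16a1, which bridges fibrils and other matrix, had 28.5 TPM in replicate 2 and 21.7 TPM in replicate 1. Col14a1, a fibril-surface collagen that limits lateral fusion of fibrils, had 17.1 TPM in replicate 2 and 16.2 TPM in replicate 1. Col12a1, its relative in tissues under load, had 14.2 TPM in replicate 2 and 12.9 TPM in replicate 1. For Col14a1 and Col12a1 the counting intervals of the difference included zero, while Col16a1 was 1.29-fold higher in replicate 2 (counting interval 0.26 to 0.48 on the log2 scale). Col19a1 and Col22a1, the remaining genes of this class, were under 1 TPM, with 0 and 1 read for Col19a1 and 21 and 8 reads for Col22a1 in replicates 2 and 1.

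Type IV collagen of the heart was chiefly Col4a1 and Col4a2, the chains found in nearly all basement membranes. Col4a1 had 166 TPM in replicate 2 and 173 TPM in replicate 1. Col4a2 had 60.5 TPM in replicate 2 and 62.8 TPM in replicate 1. Both were slightly lower in replicate 2 on TMM-scaled counts, by a log2 difference of -0.10 each. When libraries are scaled on spike-ins the differences were near zero, at 0.0066 for Col4a1 and 0.011 for Col4a2, within counting error. The 6 endothelial markers, from cells that rest on such membrane, had 1 member above and 5 below zero, with a median of -0.10. Of all genes at a mean count of 100 or more, 48.9% lay above zero. The counting interval lay below zero in 4 of these markers and above it in 0. The part of these markers in the result was not tested.

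The ratio of Col4a1 to Col4a2 was the most even of all chain pairs examined. It was 2.75 in replicate 2 and 2.76 in replicate 1, a mean log2 ratio of 1.46 ± 0.0045 (SD, n = 2). This SD is smaller than the error of counting. The counting interval of the difference ran from -0.131 to -0.079 for Col4a1 and from -0.145 to -0.056 for Col4a2. Evenness this close is finer than the reads can resolve, and its place among the pairs describes these 2 libraries only. The genes lie head to head on chromosome 8, Col4a1 on the minus strand and Col4a2 on the plus strand, and their first exons overlap by 22 bases in GENCODE M21.
Col4a1 and Col4a2, overlap of first exons, chr8:11312805-11312826, plus strand: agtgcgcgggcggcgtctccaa
Strand use in the counting is not given in the sources used here, so reads within these 22 bases cannot be assigned to either gene for certain, against 22758 and 8052 reads over the whole genes in replicate 2.

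The second head-to-head pair, Col4a4 and Col4a3, which encode chains of mature kidney and lung basement membrane, was almost silent. Col4a3 had 0.56 TPM in replicate 2 and 0.44 TPM in replicate 1. Col4a4 had 0.31 and 0.45 TPM in the same order, so that by TPM the higher chain differed between the hearts. By reads Col4a3 was higher in both, with 91.5 and 77.2 reads against 58 and 65. Counting only protein coding transcripts, Col4a3 over Col4a4 was 1.85 in replicate 2 and 1.52 in replicate 1. In replicate 1 the retained-intron form Col4a4-202 held 35.6% of that gene's TPM on 3.82 reads. An antisense transcript, C430014B12Rik, shares 563 exon bases with Col4a3 and had 0.62 and 0.77 TPM, and their reads cannot be told apart where strand is not known. The 71 bases between the starts of this pair are printed for comparison with the expressed pair.
Col4a4 and Col4a3, between starts, chr1:82586850-82586920, plus strand: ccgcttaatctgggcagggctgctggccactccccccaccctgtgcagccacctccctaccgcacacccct

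The X-linked pair, Col4a5 and Col4a6, stood at different levels. Col4a5, the gene of X-linked Alport syndrome in humans, had 41.4 TPM in replicate 2 and 31.6 TPM in replicate 1. Col4a6, a chain of smooth muscle basement membrane, had 4.94 TPM in replicate 2 and 5.14 TPM in replicate 1. Between their starts, on opposite strands, lie 1308 bases. Col4a5 was 1.30-fold higher in replicate 2, the library with Xist (log2 0.38, counting interval 0.32 to 0.45), whereas the interval of Col4a6 ran from -0.26 to 0.05. The part of sex in the Col4a5 difference was not tested. The ratio of Col4a5 to Col4a6 was 8.39 in replicate 2 and 6.15 in replicate 1.

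The 3 genes of type VI collagen, which forms beaded filaments next to cells, were all detected. Col6a1 had 46.5 TPM in replicate 2 and 46.0 TPM in replicate 1. Col6a2 had 34.8 TPM in replicate 2 and 31.0 TPM in replicate 1. Col6a3, the largest chain, had 17.0 TPM in replicate 2 and 15.8 TPM in replicate 1. Its reads ran the other way, 1381 in replicate 2 and 1535 in replicate 1 (log2 difference -0.21), with the authors' average transcript length of the gene at 3961 nt in replicate 2 and 4752 nt in replicate 1. In 7 of the 39 genes the differences by TPM and by counts had opposite signs, a share that was not computed over all genes. The 3 chains assemble in equal parts, and Col6a3 was at 0.366 of Col6a1 in replicate 2 and 0.343 in replicate 1, and counting only protein coding transcripts the values were 0.194 and 0.187.

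The multiplexins Col18a1 and Col15a1 are basement membrane proteoglycans whose ends release the antiangiogenic fragments endostatin and restin. Col18a1 had 78.1 TPM in replicate 2, against 72.6 TPM in replicate 1, the fifth level among the 39 genes. Col15a1 had 6.27 TPM in replicate 2 and 9.46 TPM in replicate 1, from 448 and 662 reads. Col15a1 was the only collagen gene at a mean count of 100 or more that was at least 1.5-fold higher in replicate 1, by 1.53-fold (log2 -0.62, counting interval -0.79 to -0.44). On spike-in scaling it kept its sign but fell short of 1.5-fold (log2 -0.51). The log2 differences of the endothelial markers ranged from -0.23 to 0.09, those of the macrophage markers from -0.45 to 0.14 and those of the erythroid markers from -1.26 to -0.87. Their part in the Col15a1 difference was not tested.

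Col18a1 reads lay with the short form. Col18a1-202, which begins at 77166548 on the minus strand of chromosome 10, held 98.5% of the gene's TPM in replicate 2 and 99.2% in replicate 1. Col18a1-201, which begins 52602 bases further downstream and carries a coding exon of 1459 nt that the short form lacks, held 0.769% in replicate 2 and 0.385% in replicate 1. The short form is the one of vascular and epithelial basement membranes, and the longer forms are known from liver. The window before the upstream start is printed for that reason; it held 3 copies of GGGCGG and 1 of CCAAT, all on the opposite strand and so read here as CCGCCC and ATTGG.
Col18a1, upstream start, chr10:77166531-77166780, minus strand: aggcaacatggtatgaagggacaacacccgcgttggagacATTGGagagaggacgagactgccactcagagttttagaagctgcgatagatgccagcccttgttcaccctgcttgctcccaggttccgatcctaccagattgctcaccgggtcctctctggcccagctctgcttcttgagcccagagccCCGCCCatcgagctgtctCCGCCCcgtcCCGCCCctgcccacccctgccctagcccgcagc

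Short-chain and transmembrane collagens were low. Of the short-chain genes, Col8a2 had 3.77 TPM in replicate 2 and 2.98 TPM in replicate 1. Col8a1, its partner in type VIII collagen of vessels and valves, had 1.81 TPM in replicate 2, against 1.14 TPM in replicate 1, and Col10a1, made by hypertrophic chondrocytes, had 0.30 and 0.20 TPM. Col8a1 was the only collagen gene at this count that was at least 1.5-fold higher in replicate 2, by 1.54-fold on 191 and 119 reads, with a counting interval of 0.29 to 0.97 on the log2 scale that reaches below 1.5-fold.

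The transmembrane collagens span the plasma membrane and are shed from it. Col23a1 had 10.4 TPM in replicate 2 and 9.65 TPM in replicate 1. Col13a1, known from neuromuscular junctions, had 7.43 TPM in replicate 2 and 4.94 TPM in replicate 1. Col25a1, needed in mouse for motor nerves to enter muscle, had 1.78 and 1.5 TPM in the same order. The neuron and Schwann cell markers summed to 13.7 TPM in replicate 2 and 6.23 TPM in replicate 1, with 3 of 6 at 1 TPM in both. Their part in the Col13a1 values was not tested. Col17a1, the hemidesmosome collagen of skin, had 0.36 TPM in replicate 2, against 0.60 TPM in replicate 1.

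The 11 genes under 1 TPM were thus Col5a3, Col11a2, Col24a1, Col4a3, Col4a4, Col10a1, Col17a1, Col19a1, Col22a1, Col7a1 and Col28a1. Col7a1, which anchors the epidermis, had 0.31 TPM in replicate 2, against 0.37 TPM in replicate 1, and Col28a1, known from peripheral nerve, had 3 and 10 reads. All but Col19a1 had reads in both libraries, though the 3 reads of Col28a1 in replicate 2 are no more than a count of 0 allows. Col10a1 shares 18 exon bases with Nt5dc1 on the other strand, which had 6.08 TPM in replicate 2 and 5.13 TPM in replicate 1. So few reads do not by themselves show that a gene is expressed. For Col19a1 in replicate 2, a count of 0 allows up to 3 reads.

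Ratios between chain genes were taken within each heart. Col1a1 over Col1a2 was 1.37 in replicate 2 and 1.47 in replicate 1 (mean log2 ratio 0.50 ± 0.08, SD, n = 2), whereas type I collagen uses a pair of Col1a1 chains for each Col1a2 chain. Col5a1 over Col5a2 was 1.26 in replicate 2 and 1.17 in replicate 1, and Col6a1 over Col6a2 was 1.33 and 1.48 in the same order. Col1a1 was below Col3a1 in both hearts, with a mean log2 ratio of -0.92 ± 0.08. These ratios differed from equality by more than the spread between the hearts, which does not cover how reads are shared among transcripts. The Col3a1 level includes a short coding fragment, described below. By full-length transcript the gap was smaller. Col1a1-201 had 395 TPM in replicate 2 and 342 TPM in replicate 1, against 534 and 432 TPM for Col3a1-201. On expected counts, without length correction, the mean log2 ratio of Col1a1 over Col3a1 was -0.37.

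Other pairs were wider or less even. Col11a1 over Col11a2 was 7.34 in replicate 2 and 11.7 in replicate 1, a mean log2 ratio of 3.21 that was 1.86 on posterior mean TPM. Col18a1 over Col15a1 was 12.5 in replicate 2 and 7.68 in replicate 1. Col9a3 over Col9a2 was 1.88 in replicate 2 and 1.71 in replicate 1. Col9a1 over Col9a2 was 1.04 in replicate 2 and 0.739 in replicate 1, so these chains could not be ordered. Col8a1 over Col8a2 was 0.480 and 0.383, and Col12a1 over Col14a1 was 0.828 and 0.796, in the same order. Restricted to protein coding transcripts, Col12a1 over Col14a1 was 0.479 and 0.492. The retained-intron form Col12a1-206 held 22.9% of that gene's TPM in replicate 2 and 20.8% in replicate 1.

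**Figure D3:**
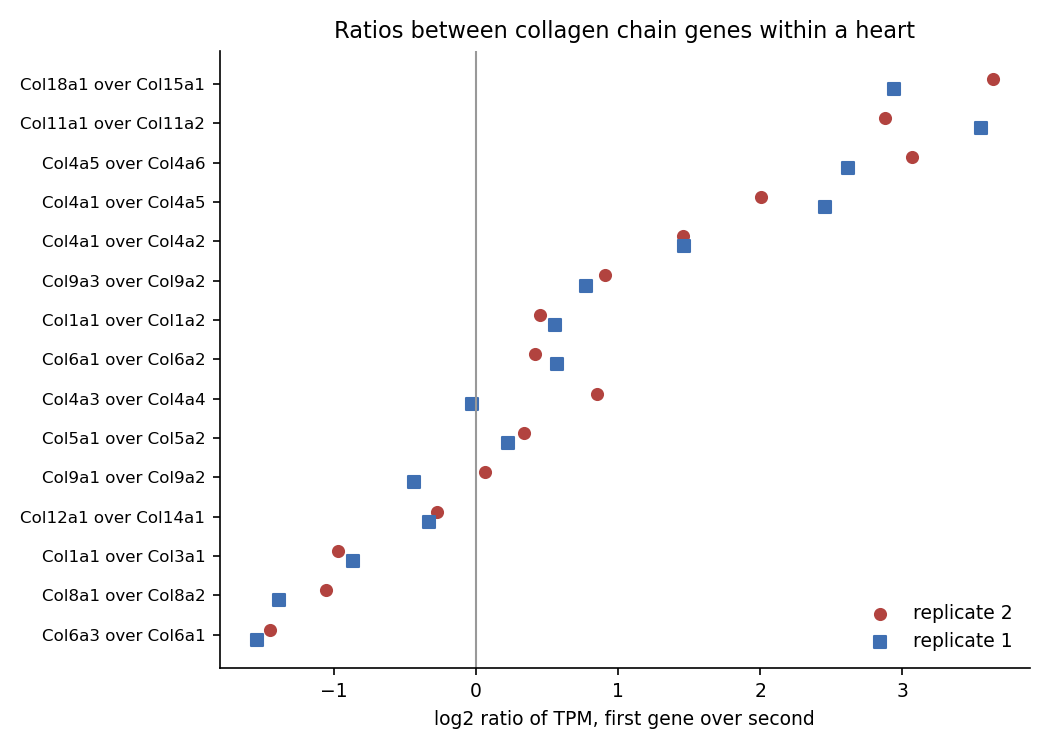
Log2 ratio of TPM between 2 collagen chain genes (x axis, first-named over second-named), 1 row per pair, with circles for replicate 2 and squares for replicate 1 and a line at equal levels. Col4a1 over Col4a2 is nearly the same in both hearts at 1.46 and 1.47, while Col9a1 over Col9a2 and Col4a3 over Col4a4 lie on both sides of the line.

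In most abundant members a single full-length transcript carried the gene. Among 27 detected genes with more than 1 annotated transcript, the leading one held at least 90% of TPM in both libraries in 13. It was the same transcript in both in 23. Neither share was computed over all genes, so these counts describe the collagen genes alone. Col1a1-201 held 99.3% in replicate 2 and 98.2% in replicate 1, and Col4a1-201 held 99.8% and 99.7% in the same order. Col3a1 was an exception among the abundant genes. Its full-length transcript Col3a1-201 held 68.4% of TPM in replicate 2 and 68.1% in replicate 1, and Col3a1-205, a coding fragment of 737 nt with its start 28420 bases downstream, held 30.8% and 31.4%. In reads the same fragment had 4.99% in replicate 2 and 5.09% in replicate 1, as TPM divides reads by length.

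Shares of TPM and of reads parted in other genes too. In Col16a1, Col12a1 and Col27a1 the leading transcript by TPM was not the leading one by reads in either heart, and in Col16a1 and Col27a1 it was a non-coding form. In Col6a3 and Col13a1 this held in replicate 2 only. The retained-intron form Col6a3-206 had 45.7% of TPM in replicate 2 and 43.1% in replicate 1, where the protein coding Col6a3-202 led. By reads the leading transcript was protein coding in all 28 genes. By TPM, Col4a5 was split between 2 transcripts. The full-length Col4a5-202 had 52.1% of TPM in replicate 2 and 48.2% in replicate 1, and Col4a5-204 had 47.9% and 51.3%. Col4a5-204 is annotated at 3511 nt, with its start 154739 bases downstream and 2398 nt of coding sequence, against 5073 nt in Col4a5-202. By reads Col4a5-202 led in both hearts, with 67.2% in replicate 2 and 63.9% in replicate 1. The leader by TPM differed between the hearts in Col15a1 as well, where Col15a1-202 had 50.3% in replicate 2 and 49.4% in replicate 1. By reads Col15a1-202 led in both, with 75.1% and 75.0% in the same order.

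**Figure D4:**
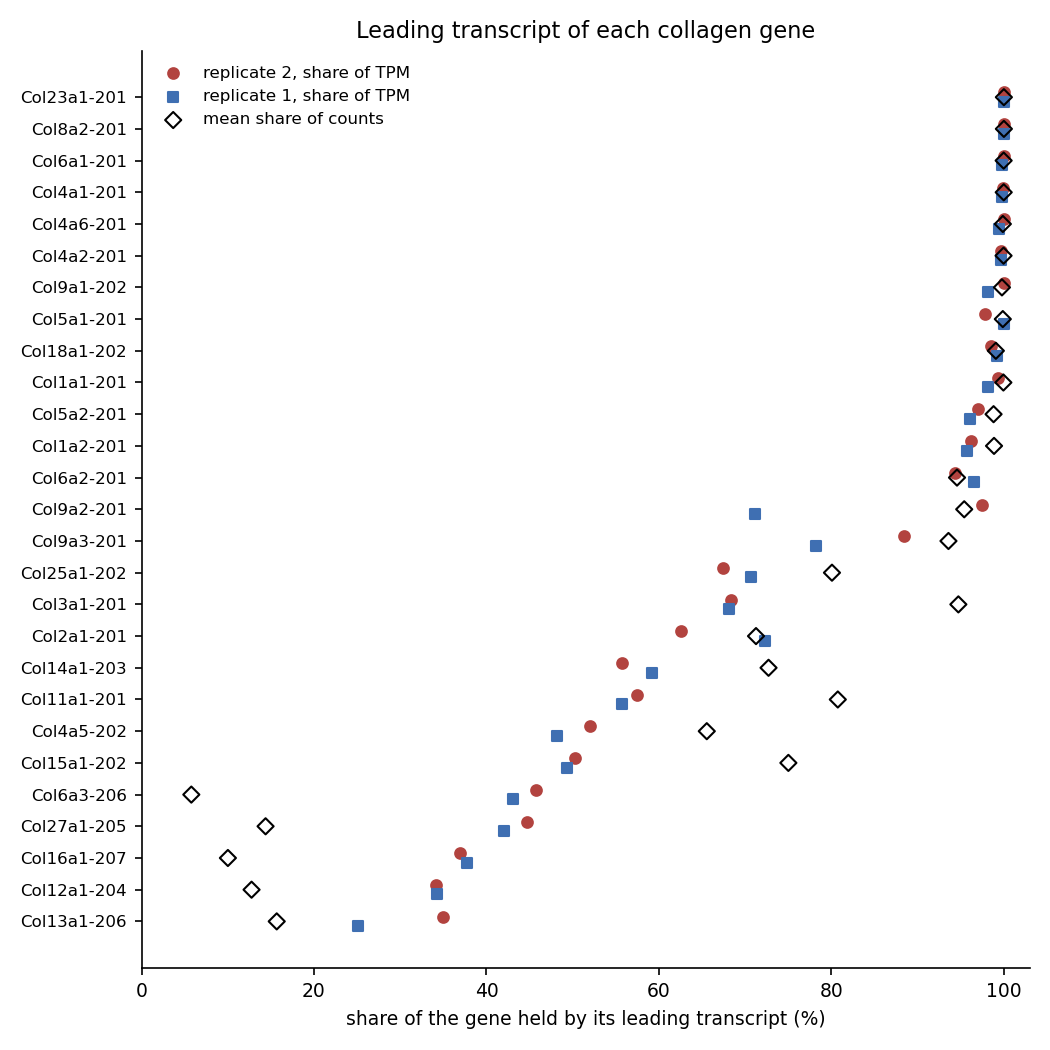
Share of each gene held by its leading transcript by mean TPM (x axis, percent) for 27 collagen genes with more than 1 transcript, with circles for the share of TPM in replicate 2, squares for replicate 1 and open diamonds for the mean share of reads. In 13 genes both TPM shares are at 90% or more, and for the short leading forms of Col6a3, Col27a1, Col16a1, Col12a1 and Col13a1 the share of reads is far below the share of TPM.

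The hearts differed modestly in collagen RNA. Among the 28 genes whose counts averaged 100 or more, the median log2 difference of replicate 2 over replicate 1 was 0.14, beside -0.0038 over all 11958 genes at that count. Of the 28, 18 lay above zero, where 48.9% of all 11958 genes did. The counting interval lay above zero in 16 of the 28 and below it in 4. That share was not computed over all genes, and with many reads an interval excludes zero at a small difference. Only Col8a1 was at least 1.5-fold higher in replicate 2 (1 of 28, 3.57%) where 1.34% of all genes were, and only Col15a1 was at least 1.5-fold higher in replicate 1 (3.57%) where 0.61% were. These counts of 1 are too small to set against the background. On spike-in scaling 2 genes, Col8a1 and Col9a1, were at least 1.5-fold higher in replicate 2 and 0 in replicate 1, and by the TPM ratio 2, Col8a1 and Col13a1, were higher in replicate 2 and 1 in replicate 1. On TMM-scaled counts none of the 28 was 2-fold apart.

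At 1.2-fold, a line added after the values had been seen, 9 of 28 genes (32.1%) were higher in replicate 2, where 7.59% of all genes were, and 1 (3.57%) was higher in replicate 1, where 5.25% were. The 9 were Col2a1, Col4a5, Col8a1, Col8a2, Col9a1, Col9a2, Col13a1, Col16a1 and Col27a1. The counting intervals of Col8a2, Col9a1, Col9a2, Col13a1, Col16a1 and Col27a1 reached below 1.2-fold. By TPM Col9a2 was nearly equal, at 5.13 in replicate 2 and 5.05 in replicate 1. The member just above the line was Col8a2, at 1.22-fold, and Col3a1 and Col1a2 lay just under it, with log2 differences of 0.26 each. The 9 genes come from 5 classes, and 7 of them had a mean TPM below 10, so most of the collagen RNA lay in genes that differed less. On spike-in totals the median of all genes moved by 0.11, to 0.11, and that of the collagen genes to 0.25. In that scaling Col4a1, Col4a2, Col4a6, Col5a2, Col6a1, Col11a1, Col12a1 and Col14a1 changed sign, and Col15a1 and Col6a3 were the genes still lower in replicate 2. With the erythroid list 5 of 5 higher in replicate 1, the part of blood RNA in these differences was not tested.

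**Figure D5:**
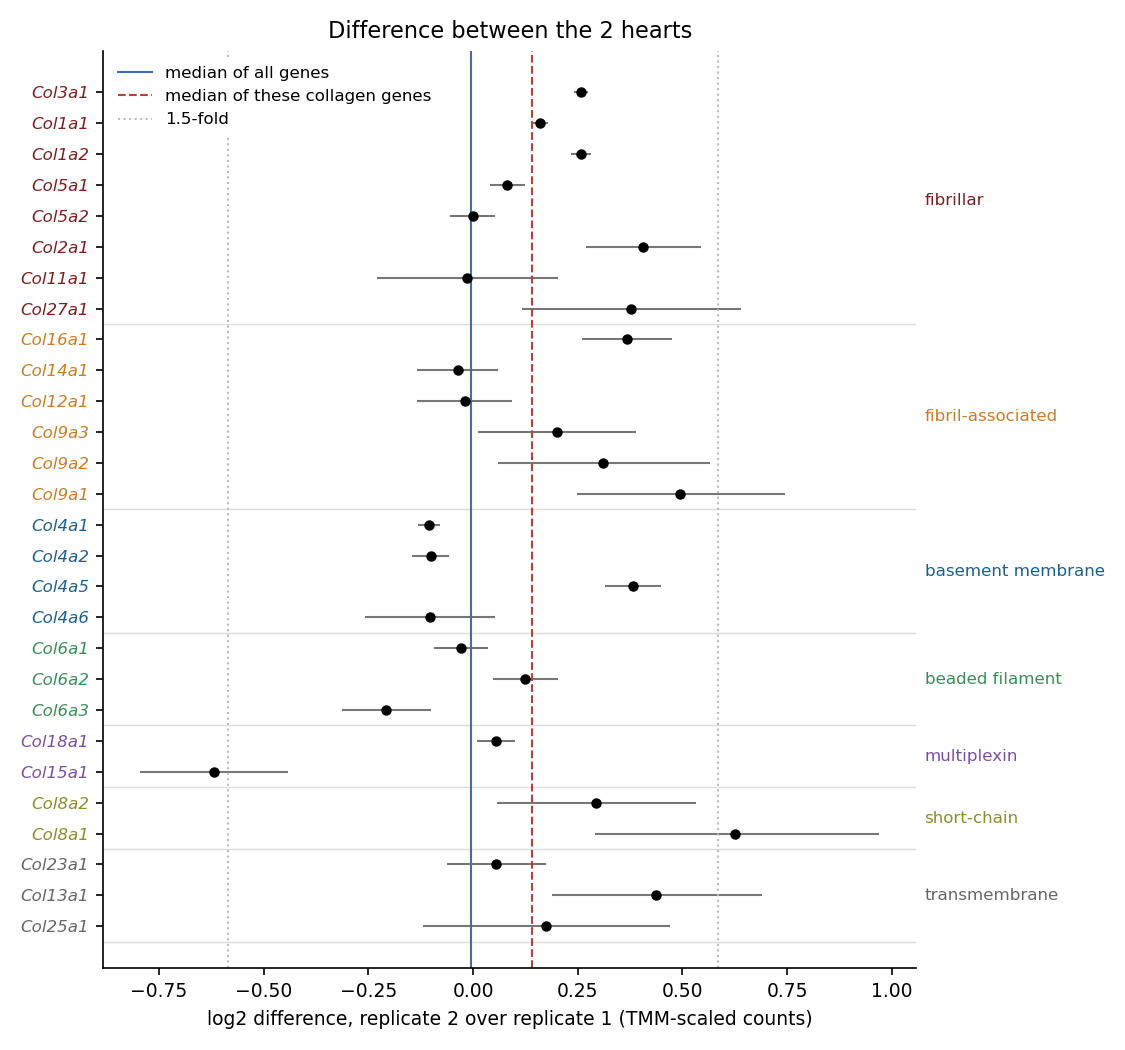
Log2 difference of replicate 2 over replicate 1 on TMM-scaled counts (x axis) for 28 collagen genes grouped by class, with bars for the exact 95% counting interval. The solid line is the median of all genes (-0.0038), the dashed line the median of the collagen genes (0.14) and the dotted lines mark 1.5-fold, beyond which lie the points of Col15a1 and Col8a1.

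The machinery that makes, exports and remodels collagen was present alongside. Of 92 pathway genes found, 75 were at 1 TPM or more in both libraries, and the median log2 difference over the 77 with enough reads was 0.02. All 18 hydroxylation and folding genes were detected, led by P4hb, the shared subunit of prolyl 4-hydroxylase (359 TPM in replicate 2 and 348 TPM in replicate 1), Serpinh1, the collagen chaperone HSP47 (309 and 288 TPM), and Ppib, a prolyl isomerase (290 and 260 TPM). All 7 export genes found were detected, with the coat protein Sec13 at 163 TPM in replicate 2 and 144 TPM in replicate 1, Sec23a at 64.4 and 60.1 TPM and Mia3, the receptor that loads large procollagens, at 59.2 and 56.2 TPM.

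Outside the cell, 5 of 8 propeptide cleavage genes were detected, with the enhancer Pcolce at 94.3 TPM in replicate 2, against 93.2 TPM in replicate 1, the proteinase Bmp1 at 28.8 and 27.7 TPM and Adamts2 at 6.22 and 5.14 TPM. Of 7 crosslinking genes 6 were detected, led by Tgm2 (125 TPM in replicate 2 and 109 TPM in replicate 1), Pxdn, which crosslinks type IV collagen (63.6 and 66.3 TPM), and Loxl1 (41.3 and 36.2 TPM). Loxl3, a lysyl oxidase relative, was the only pathway gene at a mean count of 100 or more that was at least 1.5-fold apart, with 4.71 TPM in replicate 2 and 2.96 TPM in replicate 1 (log2 0.65, counting interval 0.40 to 0.90).

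Of 12 fibril organisers 11 were detected, led by Sparc (1404 TPM in replicate 2 and 1385 TPM in replicate 1), Postn (251 and 261 TPM) and Dcn (211 and 183 TPM), while the corneal Kera had 0.05 and 0.18 TPM. Of 15 basement membrane partners 12 were detected, led by the laminin chains Lama4 (110 TPM in replicate 2 and 114 TPM in replicate 1), Lamc1 (104 and 108 TPM) and Lamb1 (80.7 and 82.9 TPM). That list leaned the way of Col4a1 and Col4a2, with 4 members above and 9 below zero and a median of -0.06, before the spike-in shift of 0.11 that turns its sign. Of 11 collagen receptors 7 were detected, led by Itgb1 (325 TPM in replicate 2 and 339 TPM in replicate 1), Ddr1 (58.4 and 58.3 TPM) and Itga1 (18.1 and 18.8 TPM). Of 14 degradation genes 9 were detected, with Mmp2 at 89.4 TPM in replicate 2 and 85.2 TPM in replicate 1, Mmp14 at 84.7 and 75.9 TPM and the inhibitor Timp3 at 70.9 and 72.4 TPM. Mmp1a had 0 reads in both.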

How the data were processed

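Each library had a gene and a transcript table, quantified on mm10 with annotation M4, per the submitters' text file headers. Aligner, quantification tool and strand use: not given in the sources used here. Column names match RSEM output. The authors deposited expected counts, which are estimated read counts that share ambiguous reads, TPM summed over all rows with spike-ins, FPKM, posterior mean counts and, for transcripts, the percent of the gene's TPM. The deposited FPKM and posterior means served as alternatives. Library totals, in units of 1e+06 expected counts, were 29.0 in replicate 2 and 28.5 in replicate 1, of which spike-ins held 3.55% and 3.74%, and rows named only by a number or phiX under 0.001 percent. The posterior SD of a collagen gene's count, another deposited value, was at most 1.5 reads.

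Names, positions and transcripts came from GENCODE M21 (GRCm38), matched on identifiers without version, with a symbol for 98.0% of gene rows. Rounded expected counts were scaled by TMM (edgeR 4.0.16, R 4.3.3), with a prior of 0.5 and a mean count of at least 100 for differences between hearts. Counting intervals are exact Clopper-Pearson 95% intervals on the share of both counts and cover counting error only. DESeq2 1.42.0 size factors and spike-in totals were alternatives. Of 93 pathway genes Ctage5 was not matched, nor was the marker Ahsp. The members, lists and rules were chosen with earlier results of these data known. Values were given for genes at a mean of 10 TPM or more, those 1.5-fold apart and the chain pairs, for the 3 highest genes of each pathway list, and for other members where they complete a class.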

Additional observations from a re-analysis of the deposited data

How the results depend on the processing

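Leaving out either library left 28 collagen genes at 1 TPM, and other minimums or units gave 26 to 29. The collagen share of gene TPM was 0.245% without haemoglobin and mitochondrially encoded genes and 0.751% by expected counts, and ran from 0.201 to 0.232% with either library left out. The number of genes at least 1.5-fold apart, 2 of 28, became 7 at a mean count of 10 or more, 9 with no minimum, 0 at 2-fold and 10 at 1.2-fold, a line chosen after seeing the data. The median collagen difference was 0.25 on spike-in scaling. Under DESeq2 size factors only Col5a2 changed sign among the 28. Spike-in scaling shifted every gene alike and moved 14 of 28 single-gene differences out of their counting interval. Of 48 chain ratios recomputed from other units or transcripts 15 moved by 1 SD or more. Without length correction the log2 ratios were 0.68 for Col1a1 over Col1a2, -0.37 for Col1a1 over Col3a1, 1.5 for Col4a1 over Col4a2, 0.65 for Col5a1 over Col5a2 and -1.41 for Col6a3 over Col6a1. Posterior mean TPM gave 1.46 for Col4a1 over Col4a2, and protein coding transcripts gave -2.39 for Col6a3 over Col6a1. The cause of these shifts was not tested. Depth limits the 11 genes under 1 TPM, which had at most 91.5 reads in a library, and no paired analysis was possible because there is 1 group.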

Other observations

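The gene tables held 5 collagen genes beyond the 39. Col26a1, a collagen of the testis and ovary matrix, had 11.1 TPM in replicate 2 and 5.92 TPM in replicate 1, from 565 and 308 reads, a log2 difference of 0.82 with a counting interval of 0.62 to 1.03. That gap is wider than those of all 28 collagen genes compared above. Col6a6, a relative of Col6a3, had 3.3 TPM in replicate 2 and 4.12 TPM in replicate 1. Col20a1, Col6a4 and Col6a5 had 9, 0 and 7.2 reads in replicate 2, and 5, 4 and 0 reads in replicate 1.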
